A study of Mus musculus with 14 samples.

Results

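The sarcomere and excitation-contraction genes examined here are 49 genes of the contractile apparatus, chosen by name, with earlier results of these data known. All 49 were among the 14837 genes of the input RNA-seq table. Of these, 39 had rows in the m6A-RIP table, 9 had peaks in the Igf2bp3-RIP table and 11 had peaks in the Lin28a-RIP table. By role they comprised 11 genes of the thick filament, 14 of the thin filament, 14 of the Z-disc, M-band and their scaffolds, 5 of excitation-contraction coupling and calcium handling, 2 creatine kinases and 3 factors that assemble myosin and thin filaments.

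The samples were untreated muscle stem cells (MuSCs) of mouse skeletal muscle, kept in culture on Matrigel in serum-containing DMEM, in a control group and a Lin28a+ group. Lin28a+ MuSCs were sorted from mice that carry Lin28a-CreERT2 and LSL-tdTomato, so that the label reports activity of the Lin28a promoter when Cre was active rather than Lin28a protein at harvest. How the control MuSCs were obtained, and whether replicate libraries came from separate animals or cultures, is not given in the sources used here. The p-values below therefore measure only counting noise and the spread between these libraries. Each group had 2 input, 2 m6A-RIP and 2 Igf2bp3-RIP libraries, and Lin28a-RIP had 2 libraries from Lin28a+ MuSCs and none from control MuSCs. In RIP-seq an antibody pulls down RNA that carries the m6A mark or is bound by the protein, and the recovered RNA is sequenced.

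Totals ranged from 4842915 to 6220960 estimated counts in the input, from 21350962 to 31830638 counts in m6A-RIP and from 9215355 to 34142094 counts in Igf2bp3-RIP, where the second replicate of each group was the deeper, and were 36610494 and 33908110 in Lin28a-RIP. In the deposited input table both Lin28a+ columns bear m6A-RIP names and were taken as input because of the table they stand in. Levels below are CPM values, that is counts scaled to the library total, with TMM factors applied unless stated otherwise. In every input library Myod1 and Pax7, which define myogenic cells, were present at 4641 to 4715 and 142 to 193 CPM. Of the satellite cell and myoblast markers (8 of 10 in the table), 7 were tested, of which Pax7, Cdh15 and Heyl rose by 0.36, 0.77 and 3.99 on the log2 scale and Myf5 and Sdc4 fell by 1.21 and 1.10. Summed levels of the endothelial markers (2 of 6 in the table) were 0.858 to 1.51 CPM, those of the macrophage markers (5 of 6) 3.24 to 5.59 CPM and those of the cardiomyocyte markers (4 of 10) 1.86 to 4.25 CPM, without TMM scaling. Fibro-adipogenic progenitor markers (7 of 10) summed to 268 and 281 CPM in control and to 199 and 199 CPM in Lin28a+ MuSCs, with the defining marker Pdgfra under 1 CPM throughout. Of this list 2 genes fell, Gsn (143 and 148 against 63.0 and 63.6 CPM with TMM scaling) and Cd55, Ly6a rose and 2 did not pass the test. Among all genes tested in RNA, 28.1% were called higher and 28.7% lower. In bulk RNA, fewer cells that express a gene and less of its RNA per cell cannot be told apart.

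Muscle contracts when myosin of the thick filament pulls on actin of the thin filament within a sarcomere bounded by Z-discs. Troponin and tropomyosin make this pull depend on calcium, which the ryanodine receptor releases from the sarcoplasmic reticulum after the voltage sensor of the membrane is excited, and which calcium pumps then remove. Many of these proteins exist as paralogs encoded by different genes, and a developing muscle fibre replaces embryonic and cardiac paralogs by adult skeletal ones of the fast or slow type. MuSCs are mononucleated progenitors, and sarcomere genes are switched on as their progeny differentiate and fuse.

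In the RNA of Lin28a+ MuSCs most sarcomere genes were lower than in control MuSCs, while a small set that included cardiac actin, slow troponin T and the fast calcium pump was higher. Of the 47 genes that passed the filter on low counts, 14 rose, 29 fell and 4 did not pass the test (edgeR quasi-likelihood test, Benjamini-Hochberg adjusted p under 0.05). Calls were frequent among all genes, with 56.9% of 11317 genes called, 28.1% higher and 28.7% lower. Changes over 2-fold were found for 5 genes that rose (Actc1, Atp2a1, Tnnt1, Mybpc1 and Myh8) and 15 that fell, against 4.50% and 8.74% of all genes. The median log2 fold change was -0.57 over the 47 genes and 0.01 over all genes tested. The genes that did not pass were Myh7 (slow myosin, -0.68 ± 0.38 SE on the log2 scale), Tnni2 (fast troponin I, -0.11 ± 0.10), Tcap (titin cap, 0.08 ± 0.16) and Unc45b (a myosin chaperone, 0.13 ± 0.20). Myh2 and Myoz1 were not tested, because their estimated counts were at most 4.53 and 2.25 in any library. DESeq2 called fewer of these genes in both directions, with 9 in place of 14 higher, against 13.1% of all genes higher.

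**Figure D1:**
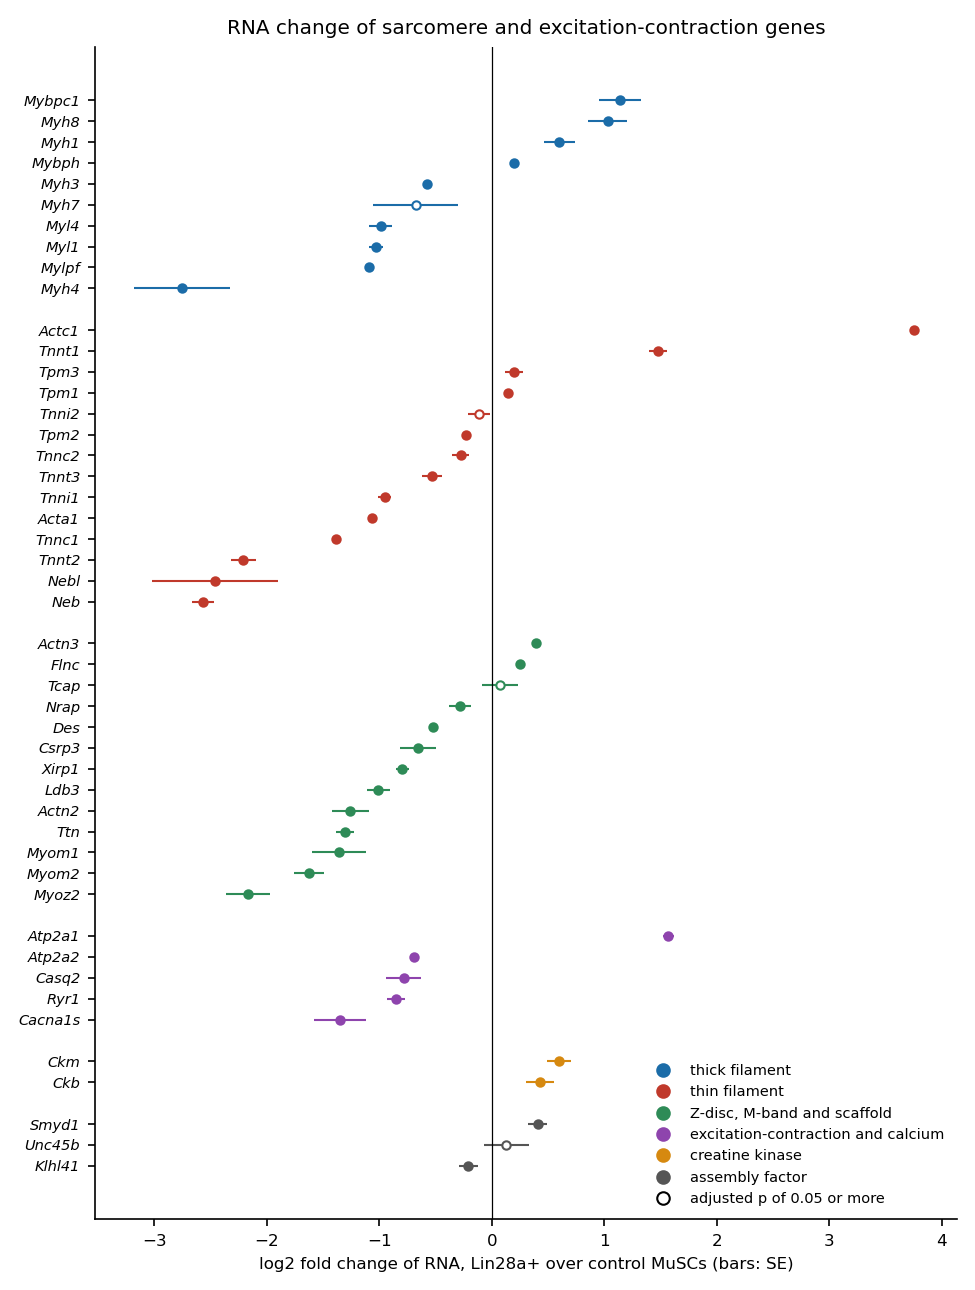
Log2 fold change of input RNA in Lin28a+ over control MuSCs for the 47 genes tested, with bars of 1 SE, grouped by role. Actc1 stands at 3.75, far to the right of the other genes, and the genes below -2 are Myh4, Neb, Nebl, Tnnt2 and Myoz2. Open circles mark the 4 genes that did not pass the test.

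Thin filament genes showed the widest range of changes. Actc1, the sarcomeric actin of heart and embryonic muscle, was at 83.8 and 79.3 CPM in control and at 1109 and 1086 CPM in Lin28a+ MuSCs. That was a 13.5-fold rise (log2 fold change 3.75 ± 0.04 SE, adjusted p = 1.2e-06), and Actc1 ranked 23rd from the top of 11317 genes by fold change. Acta1, the sarcomeric actin of adult skeletal muscle, was at 3809 and 3817 CPM in control and at 1832 and 1808 CPM in Lin28a+ MuSCs, a fall by 1.07 ± 0.02 on the log2 scale (adjusted p = 4.5e-06). Neither gene's libraries overlapped between the groups, which was so for 84.9% of all genes tested. Within each library, the ratio of Actc1 to Acta1 estimated counts went from 0.0220 and 0.0208 in control to 0.605 and 0.601 in Lin28a+ MuSCs, 28.2-fold higher. The size of such a ratio depends on how the input values were made, and only its change between the groups is read here. The actin genes share long stretches of coding sequence, and the sources do not say how reads that fit several of them were counted, so the split between Actc1 and Acta1 is uncertain. Acta2, the smooth muscle actin, was also higher, at 5427 and 5390 CPM in control against 7424 and 7401 CPM in Lin28a+ MuSCs (log2 fold change 0.45). Summed levels of the smooth muscle and pericyte markers (9 of 10 in the table) went from 5634 and 5740 to 7617 and 7627 CPM, most of it Acta2, with Myh11 and Cnn1 under 1 CPM throughout, without TMM scaling. In that list 3 of the 7 genes tested rose and 3 fell, against 28.1% and 28.7% of all genes. The part of these markers in the Actc1 result was not tested.

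The 3 troponin T genes, whose products anchor troponin to tropomyosin, did not change alike. Tnnt1, the slow skeletal form, was at 39.1 and 36.8 CPM in control and at 104 and 107 CPM in Lin28a+ MuSCs (log2 fold change 1.48 ± 0.08, adjusted p = 1.1e-05). Tnnt2, the form of heart and embryonic muscle, was at 72.9 and 71.5 CPM in control and at 15.3 and 15.9 CPM in Lin28a+ MuSCs (-2.21 ± 0.11, adjusted p = 6.1e-06). Tnnt3, the fast skeletal form, was at 59.1 and 59.4 CPM in control and at 40.8 and 41.2 CPM in Lin28a+ MuSCs (-0.53 ± 0.09, adjusted p = 0.00018). For each of the 3 genes the libraries of the groups did not overlap, as for 84.9% of all genes tested. Per library, the Tnnt1 to Tnnt2 ratio was 0.537 and 0.515 in control and 6.84 and 6.73 in Lin28a+ MuSCs, a 12.9-fold difference. Thus Actc1 and Tnnt2, both typical of heart and embryonic muscle, moved in opposite directions.

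Among the other troponins, the calcium-binding Tnnc1 of slow and cardiac muscle fell by 1.39 ± 0.03 on the log2 scale, from 695 and 700 to 270 and 263 CPM. Its fast counterpart Tnnc2 fell by 0.28 ± 0.08, and the slow inhibitory subunit Tnni1 fell by 0.95 ± 0.06. The ratio of Tnnc1 to Tnnc2 went from 9.20 and 9.38 in control to 4.22 and 4.37 in Lin28a+ MuSCs. Tropomyosins, which lie along actin, changed little in either direction. Tpm1 rose by 0.14 ± 0.03, Tpm3 rose by 0.20 ± 0.08 and Tpm2 fell by 0.23 ± 0.03 on the log2 scale, and Tpm3 lost its call when control replicate 1 or either Lin28a+ library was left out. Neb encodes nebulin, the giant protein that runs along the thin filament, and Nebl its smaller cardiac relative. Neb was at 95.3 and 98.6 CPM in control and at 15.9 and 16.9 CPM in Lin28a+ MuSCs (-2.56 ± 0.10, adjusted p = 4.9e-06). Nebl was at 2.62 and 3.05 CPM against 0.392 and 0.612 CPM (-2.46 ± 0.56, adjusted p = 0.0013), which rests on 2.00 and 2.76 estimated counts in the Lin28a+ libraries, and DESeq2 did not call it (adjusted p = 0.078).

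**Figure D2:**
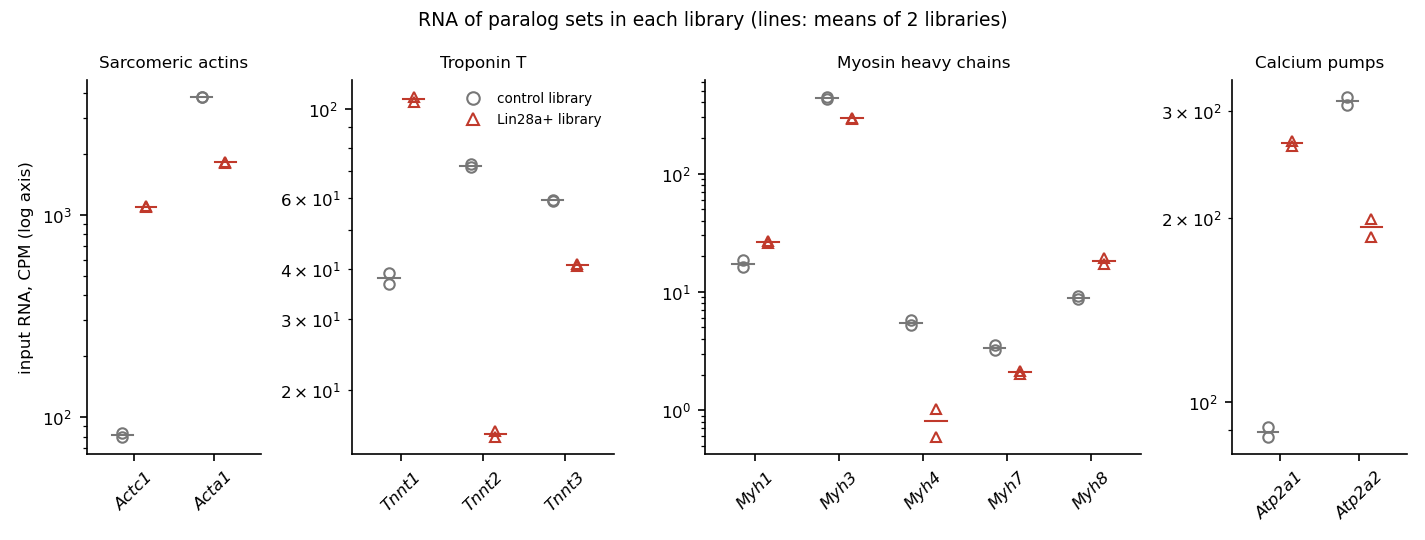
Input RNA of the actin, troponin T, myosin heavy chain and calcium pump paralogs in each library, in CPM on log axes, with lines at the mean of the 2 libraries of a group. Lin28a+ libraries lie above control libraries for Actc1, Tnnt1, Myh1, Myh8 and Atp2a1 and below them for Acta1, Tnnt2, Tnnt3, Myh3, Myh4, Myh7 and Atp2a2.

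In the thick filament the myosin heavy chain genes were divided. Myh3, the embryonic heavy chain, was at 444 and 429 CPM in control and at 291 and 296 CPM in Lin28a+ MuSCs (-0.57 ± 0.03, adjusted p = 4.6e-05). Myh8, the perinatal form, was at 9.16 and 8.67 CPM in control and at 17.1 and 19.4 CPM in Lin28a+ MuSCs (1.03 ± 0.17, adjusted p = 0.00034). Myh1, an adult fast form, was at 16.1 and 18.6 CPM against 26.1 and 26.9 CPM (0.60 ± 0.13, adjusted p = 0.0015, and 0.097 with DESeq2). Myh4, the fastest adult form, was at 5.23 and 5.78 CPM in control and at 0.588 and 1.02 CPM in Lin28a+ MuSCs (-2.75 ± 0.43, adjusted p = 0.00029), with 3.02 and 5.06 estimated counts in the latter. The 2 developmental heavy chains therefore differed in direction, and so did the 2 adult fast heavy chains that were tested. These neighbouring genes are close in coding sequence, so the division of reads among them is uncertain.

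The light chains and myosin-binding proteins completed the thick filament. Mylpf, the fast regulatory light chain, was at 1265 and 1218 CPM in control and at 589 and 575 CPM in Lin28a+ MuSCs (-1.09 ± 0.03, adjusted p = 7.2e-06). Myl1, the fast essential light chain, was at 137 and 135 CPM against 68.1 and 65.1 CPM (-1.03 ± 0.06, adjusted p = 1.6e-05), and Myl4, the essential light chain of embryonic muscle and atrium, at 51.4 and 52.8 CPM against 27.5 and 25.1 CPM (-0.99 ± 0.10). The embryonic and the adult light chain thus fell by about the same amount, and the ratio of Myl4 to Myl1 was 0.375 and 0.391 in control and 0.403 and 0.384 in Lin28a+ MuSCs. Mybpc1, slow myosin-binding protein C, was at 6.54 and 8.35 CPM in control and at 16.9 and 16.3 CPM in Lin28a+ MuSCs (1.14 ± 0.19, adjusted p = 0.00048). Mybph, the related protein H, rose by 0.20 ± 0.03 on the log2 scale.

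Of the Z-disc, M-band and scaffold genes, 13 were tested, of which 10 fell and 2 rose, against 28.7% and 28.1% of all genes. The largest falls belonged to genes that tie the sarcomere together. Myoz2, a slow-type Z-disc protein that binds calcineurin, was at 21.1 and 22.2 CPM in control and at 4.32 and 5.30 CPM in Lin28a+ MuSCs (-2.17 ± 0.20, adjusted p = 3.6e-05). Myom2, an M-band protein of fast fibres, was at 35.0 and 38.2 CPM against 12.4 and 11.4 CPM (-1.62 ± 0.14), and its paralog Myom1 at 10.8 and 10.3 CPM against 4.32 and 3.87 CPM (-1.36 ± 0.24). Ttn, the giant spring that spans from Z-disc to M-band, was at 94.0 and 94.1 CPM in control and at 38.1 and 38.1 CPM in Lin28a+ MuSCs (-1.30 ± 0.08, adjusted p = 9.9e-06). In each of these 4 genes both Lin28a+ libraries lay below both control libraries, and groups were apart in this way, in either direction, for 84.9% of all genes. Actn2 and Actn3 encode the alpha-actinins that crosslink actin at the Z-disc. Actn2 was at 20.8 and 23.1 CPM in control and at 8.43 and 9.99 CPM in Lin28a+ MuSCs (-1.26 ± 0.17), whereas Actn3, the fast-fibre form, was at 248 and 259 CPM against 330 and 335 CPM (0.39 ± 0.04). Flnc, muscle filamin, was the other gene of this group that rose, by 0.25 ± 0.02. Ldb3, Xirp1, Csrp3, Des and Nrap fell by 0.28 to 1.01 on the log2 scale, and Nrap lost its call without control replicate 2 or without the first Lin28a+ library.

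Of the 5 excitation-contraction and calcium genes 1 rose and 4 fell, where 56.9% of all genes were called. Atp2a1, the calcium pump of adult fast fibres, was at 87.5 and 90.9 CPM in control and at 263 and 268 CPM in Lin28a+ MuSCs, a 2.97-fold rise (1.57 ± 0.05, adjusted p = 4.85e-06). Atp2a2, the pump of slow and cardiac muscle, was at 307 and 316 CPM against 187 and 200 CPM (-0.69 ± 0.04, adjusted p = 6.4e-05). The ratio of Atp2a1 to Atp2a2 rose from 0.286 and 0.287 in control to 1.41 and 1.34 in Lin28a+ MuSCs, 4.79-fold. Cacna1s, the voltage sensor, was at 10.8 and 12.0 CPM against 4.71 and 4.28 CPM (-1.35 ± 0.23, adjusted p = 0.00024), and Ryr1, the release channel that it opens, at 74.8 and 78.4 CPM against 41.8 and 43.2 CPM (-0.85 ± 0.08, adjusted p = 6.1e-05). Casq2, the cardiac-type calcium store protein, was at 20.9 and 21.0 CPM against 12.6 and 11.8 CPM (-0.78 ± 0.16). Both release genes and the store thus fell while the fast pump rose.

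Both creatine kinases, which buffer ATP, rose. Ckm, the muscle form, was at 27.3 and 31.3 CPM in control and at 47.5 and 41.6 CPM in Lin28a+ MuSCs (0.60 ± 0.10, adjusted p = 0.0028). Ckb, the brain form that is typical of undifferentiated cells, was at 20.4 and 23.0 CPM against 27.9 and 30.8 CPM (0.43 ± 0.12, adjusted p = 0.0071, and 0.24 with DESeq2). The Ckm to Ckb ratio was 1.34 and 1.36 in control and 1.70 and 1.35 in Lin28a+ MuSCs, so the groups overlapped. Among the assembly factors, Smyd1, a methyltransferase that acts on myosin, rose by 0.41 ± 0.09. Klhl41, which stabilises nebulin, fell by 0.21 ± 0.08 and was not called when any library other than control replicate 2 was left out.

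Sorted by isoform type, the genes did not separate into cardiac or embryonic forms on the one side and adult skeletal forms on the other. Among all genes tested, 28.1% were called higher and 28.7% lower. Of the 7 cardiac or embryonic isoforms, 2 rose (Actc1 and Myh8) and 5 fell (Myh3, Myl4, Tnnt2, Nebl and Casq2), with a median log2 fold change of -0.78. Of the 9 slow skeletal isoforms, 3 rose (Tnnt1, Mybpc1 and Tpm3) and 5 fell, with a median of -0.68. Of the 14 adult fast isoforms 12 were tested, of which 4 rose (Atp2a1, Myh1, Ckm and Actn3) and 7 fell (Myh4, Myom2, Mylpf, Acta1, Myl1, Tnnt3 and Tnnc2), with a median of -0.40, against 0.01 for all genes. With no filter on low counts the adult fast median was -0.77, level with that of the cardiac or embryonic isoforms. The summed level of the cardiac or embryonic isoforms was nevertheless higher in Lin28a+ MuSCs, at 1485 and 1475 against 671 and 667 CPM, and this sum was set by Actc1, since without Actc1 it was 367 and 374 against 589 and 587 CPM. Adult fast isoforms summed to 5691 and 5801 CPM in control and to 3345 and 3318 CPM in Lin28a+ MuSCs. These sums are without TMM scaling.

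Other genes of the same apparatus, from a list of 75 written by name, were also lower more often than higher. Of these, 70 were in the table and 59 were tested, of which 7 rose, 36 fell and 16 did not pass, with a median log2 fold change of -0.35, against 28.1% higher and 28.7% lower and a median of 0.01 over all genes. The largest fall was that of Cavin4, a caveolar protein of the muscle membrane, from 337 and 334 to 63.2 and 54.9 CPM (-2.50 ± 0.05). Trdn, which couples the release channel to the calcium store, followed with -2.48 ± 0.51, and the small heat shock protein gene Hspb7 with -2.34 ± 0.13. Pvalb, a calcium buffer of fast fibres, was at 0.374 and 0.161 CPM in control and at 33.0 and 28.8 CPM in Lin28a+ MuSCs. Obsl1, an obscurin relative, rose by 0.85 ± 0.12 and Lmod2, which elongates thin filaments, by 0.83 ± 0.11. Of the 8 regulators of myocyte differentiation 3 rose and 3 fell, beside 28.1% and 28.7% of all genes. Myog, the factor that drives differentiation of myoblasts, was at 764 and 773 CPM in control and at 2763 and 2802 CPM in Lin28a+ MuSCs (log2 fold change 1.86). Mef2c, a transcription factor that acts at sarcomere promoters, fell by 1.51. The part of these regulators in the sarcomere changes was not tested.

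Sarcomere promoters are known to hold the CArG box bound by serum response factor, the MEF2 motif and E-boxes bound by myogenic factors. RefSeq promoters (GRCm38.p6) were at hand for 40 of the 49 genes and for 27025 genes in all, and the 250 bases before each start were searched on both strands. The CArG box was found in 6 of the 40 genes (15%), against 1.62% of all genes. The MEF2 motif was found in 8 (20%, against 3.42%) and may overlap the TATA box, and the E-box CAGCTG in 17 (42.5%, against 14.7%), which is also counted under the general E-box CANNTG, found in 31 (77.5%, against 69.3%). TATAAA was found in 10 (25%, against 14.3%). All CArG boxes of these genes are shown because they include both actins, with the box in capitals, on the coding strand and in 30 bases each.
Actc1, chr2:114052903-114052932: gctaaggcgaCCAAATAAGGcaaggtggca
Acta1, chr8:123894829-123894858: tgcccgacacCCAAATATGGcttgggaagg
Nebl, chr2:17462999-17463028: gctcccatctCCTAAATTGGctggaaatgc
Myh4, chr11:67237698-67237727: aaagagattgCCAAAAATGGttttgccaag
Myom1, chr17:71019448-71019477: gccttcctggCCATAAAAGGctggctgtgg
Ldb3, chr14:34588697-34588726: gggttacagtCCATTTATGGgcgcagcaag

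Of these 6 genes, Actc1 rose and the other 5 fell, so genes with the box were called in both directions. The box began 47 bases before the start of Actc1 and 73 bases before that of Acta1. Then 3 neighbouring myosin heavy chain promoters on chromosome 11 share 1 MEF2 match letter for letter, in capitals below, although Myh1 and Myh8 rose and Myh4 fell.
Myh1, chr11:67199881-67199910: acaactcaaaTTATTTATAGgagattgatt
Myh4, chr11:67237620-67237649: ccctgtcaaaTTATTTATAGatgacaagaa
Myh8, chr11:67277015-67277044: ccttgtcaaaTTATTTATAGgagattggtt

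These matches are descriptions of the sequence and not sites of binding. Among the 13 genes with a promoter that rose, 5 held CAGCTG, as did 12 of the 24 that fell. CANNTG was held by 8 of the 13 and 21 of the 24, the MEF2 motif by 3 and 5, and TATAAA by 6 and 4.

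m6A, the methylation of adenosine within mRNA, is recognised by reader proteins that include Igf2bp3. In m6A-RIP the counts of a gene depend on its RNA level as well as on its methylation. Of the 39 sarcomere genes in the m6A-RIP table, 10 rose, 24 fell and 5 did not pass the test (edgeR), against a background of 66.3% of 9416 genes called (32.5% higher, 33.8% lower). The median log2 fold change was -0.38, against 0.01 over all genes. Myh1, Myh2, Myh3, Myh4, Myh7, Myh8, Mybpc1, Myl1, Nebl and Actc1 had no row, so the gene that rose most in RNA had no m6A measurement. In 38 genes tested in both assays, 8 rose in both, 22 fell in both and 2, Myom1 and Myom2, fell in RNA and rose in m6A-RIP, against 23.4%, 25.8% and 0.822% of the 7420 genes in both fits. None of the 38 rose in RNA and fell in m6A-RIP, against 1.12% of all genes.

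The m6A-RIP values of Tnnt1 and Tnnt2 moved in the direction of their RNA. Tnnt1 was at 582 and 573 CPM in control and at 1547 and 1583 CPM in Lin28a+ MuSCs (1.44 ± 0.04, adjusted p = 9.9e-12). Tnnt2 was at 1815 and 1807 CPM against 324 and 332 CPM (-2.47 ± 0.04, adjusted p = 1.4e-13). Tnnt3 was at 1734 and 2935 CPM in control and at 1779 and 1835 CPM in Lin28a+ MuSCs, so its groups overlapped and it did not pass the test (-0.37 ± 0.16, adjusted p = 0.057). In both groups Tnnt1, Tnnt2 and Tnnt3 had higher CPM values in m6A-RIP, where rows were summed by gene, than in the input. Values of the 2 assays were made in unlike ways, so this difference is not read as methylation. Tnnt3 was called lower without control replicate 1 and not without control replicate 2, where the value was 0.06. Among these 39 genes the largest fall was that of Neb, from 31.2 and 34.2 to 2.96 and 5.03 CPM (-3.00 ± 0.18). Other large changes were those of Myoz2 (-1.78 ± 0.24) and Cacna1s (-1.78 ± 0.45, adjusted p = 0.11 with DESeq2) downwards, and of Atp2a1, from 26.3 and 23.5 to 55.6 and 53.3 CPM (1.12 ± 0.08), Actn3 (0.63 ± 0.08) and Ckm (0.60 ± 0.15) upwards. Except for the overlap in Tnnt3, the libraries of the groups were separate for each gene named here, as for 82.6% of all genes.

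Each gene could have several rows, which name a transcript but give no position. The 39 genes held 114 rows, of which 28 rose, 70 fell and 16 did not pass (edgeR, background 61.8% of 18881 rows called, 30.0% higher and 31.8% lower). All 9 rows of Tnnt1 rose and all 4 of Smyd1 did so, while all 12 rows of Tnnt2, 11 of Ttn, 6 of Xirp1, 6 of Tpm2, 5 of Tnni1 and 3 of Neb fell. The rows of Tnnt2 ranged from -2.74 to -2.20 and those of Tnnt1 from 1.399 to 1.706 on the log2 scale. Rows of 3 genes were called in opposite directions. For Myl4, 1 row was at 12.8 and 13.6 CPM in control and at 23.5 and 22.5 CPM in Lin28a+ MuSCs (0.80 ± 0.11), and the other was at 72.9 and 67.8 CPM against 35.9 and 31.6 CPM (-1.07 ± 0.07). For Myom1 the row with more counts rose (0.36 ± 0.05) and that with fewer counts fell (-1.76 ± 0.22). For Tnnt3, 2 rows rose, 3 fell and 2 did not pass, and in 4 of its 7 rows control replicate 2 lay well above control replicate 1, as at 499 against 212 CPM.

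**Figure D3:**
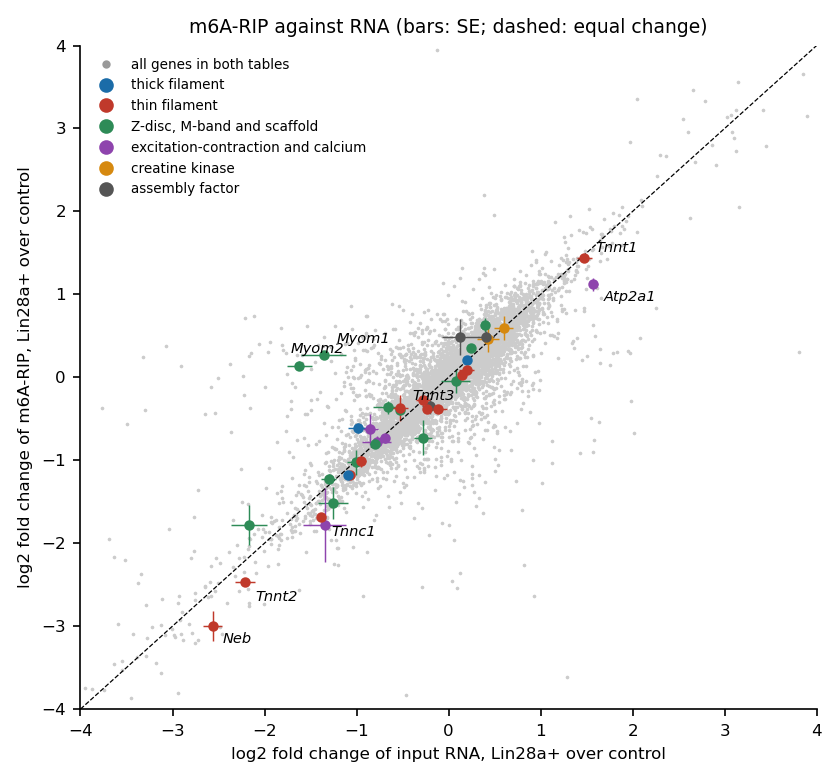
Log2 fold change of m6A-RIP against that of input RNA, Lin28a+ over control MuSCs, for the 38 sarcomere genes tested in both (coloured by role, bars of 1 SE) and for all 7420 genes in both fits (grey, of which 40 lie outside the axes). Most sarcomere genes lie along the dashed line of equal change, and Myom1 and Myom2 lie above it.

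Taking the RNA level into account, 35 of the 39 genes showed no called change of m6A-RIP relative to input (edgeR, interaction of cells and assay), 2 were higher and 2 lower, against 7.13% of 7943 genes called (3.12% higher, 4.00% lower). Atp2a1 fell relative to input by 0.47 ± 0.08 on the log2 scale (adjusted p = 0.0037) and Tnnc1 fell by 0.31 ± 0.06 (adjusted p = 0.011, 0.071 with DESeq2 and 0.062 without the first Lin28a+ input library). Myom2 rose relative to input by 1.76 ± 0.17 (adjusted p = 8.3e-05) and Myom1 by 1.61 ± 0.24 (adjusted p = 5.3e-05). Their m6A-RIP levels were 1076 and 1150 CPM in control and at 1155 and 1298 CPM in Lin28a+ MuSCs for Myom2, and 274 and 271 against 325 and 330 CPM for Myom1, while their RNA fell. The m6A-RIP rise of Myom2 itself was small (0.14 ± 0.05) and was not called under DESeq2, with total counts only, without control replicate 1 or without the second Lin28a+ library. Myom2 had 1 row and nearly all counts of Myom1 stood in 1 row, and because m6A-RIP rows carry no position it could not be checked whether these rows lie in the genes. Myoz1 was alike in having m6A-RIP levels of 106 and 105 CPM in control and at 67.7 and 64.0 CPM in Lin28a+ MuSCs with at most 2.25 estimated counts in any input library. When libraries were scaled by total counts alone, the median of all genes moved to -0.14 and the split of sarcomere genes to 2 higher and 8 lower, against 2.57% and 10.6% of all genes.

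Lin28a is an RNA-binding protein known from early embryos, and its RIP covered Lin28a+ MuSCs only, so no comparison of groups was possible. The 11 sarcomere genes with a Lin28a-RIP peak held 128 of the 21616 peaks. They were Ttn with 74 peaks, Neb with 13, Myh1 with 9, Flnc with 8, Myh8 with 7, Myh3 and Atp2a2 with 5 each, Tpm2 with 3, Ryr1 with 2 and Acta1 and Tpm3 with 1 each. Peaks were annotated to genes by the authors, and for 2 of the 11 genes every peak lay outside the gene. The Acta1 peak, chr8:123899306-123899708 as deposited, lay 4531 bases from the RefSeq span of Acta1 and within that of Nup133, which encodes a nuclear pore protein. The 3 Tpm2 peaks lay 7998 to 10851 bases from Tpm2 and within the span of Tln1, which encodes talin. Counting peaks within the gene only, a choice made after the positions had been seen, 9 genes and 124 peaks (96.9%, against 86.1% of all Lin28a-RIP peaks) remained.

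Ttn ranked 6th of 3491 genes by number of Lin28a-RIP peaks, against a median of 3 peaks per gene. Its peaks covered 77615 bases and together held 0.435% and 0.452% of the counts of the 2 libraries, at 4352 and 4517 CPM (Lin28a-RIP CPM without TMM scaling). They were spread from 7.16 to 224 kb from the start of the gene, and 24 of them were longer than 1 kb. The tallest peak, which was also the longest at 6242 bases, held 8.65% of the Ttn counts. Flnc followed at 3406 and 3288 CPM over 8010 bases, whereas Atp2a2, Tpm2 and Myh3 lay between 371 and 480 CPM, Myh1 at 180 and 180 CPM and the others lower.

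Set against input RNA of Lin28a+ MuSCs, the Lin28a-RIP level of sarcomere genes extended over most of the range of all genes. The log2 ratio of the levels (pseudocount of 1 CPM) had a median of 1.26 over the 11 genes and of 1.71 over the 3016 genes in both tables. Ttn was highest, at 6.78 and 6.84 in the 2 replicates, above 98.1% of genes. Neb, Myh1 and Myh8 followed at 3.04, 2.70 and 2.46, Flnc was at the median of all genes with 1.71, and Atp2a2, Myh3, Tpm3 and Ryr1 were at 1.26, 0.35, -1.26 and -1.48. The replicates lay furthest apart for Ryr1, at -1.64 and -1.33. Acta1 was at -6.34 and Tpm2 at 0.30, but their peaks lie in other genes, so these ratios set a peak of 1 gene against the RNA of another. With peaks inside the gene only, the median of the remaining 9 genes was 1.71 and that of all 2524 genes 1.54. The ratio also depends on the length covered by peaks and on how the input values were made, and is given as a description without a test. Ttn peaks held 4352 and 4517 CPM over 77615 bases, and Flnc peaks 3406 and 3288 CPM over 8010 bases. Per base covered, Lin28a-RIP of Ttn was thus below that of Flnc, and also below that of Atp2a2, Myh3 and Tpm3. It was above that of Neb, Myh1, Myh8 and Ryr1.

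**Figure D4:**
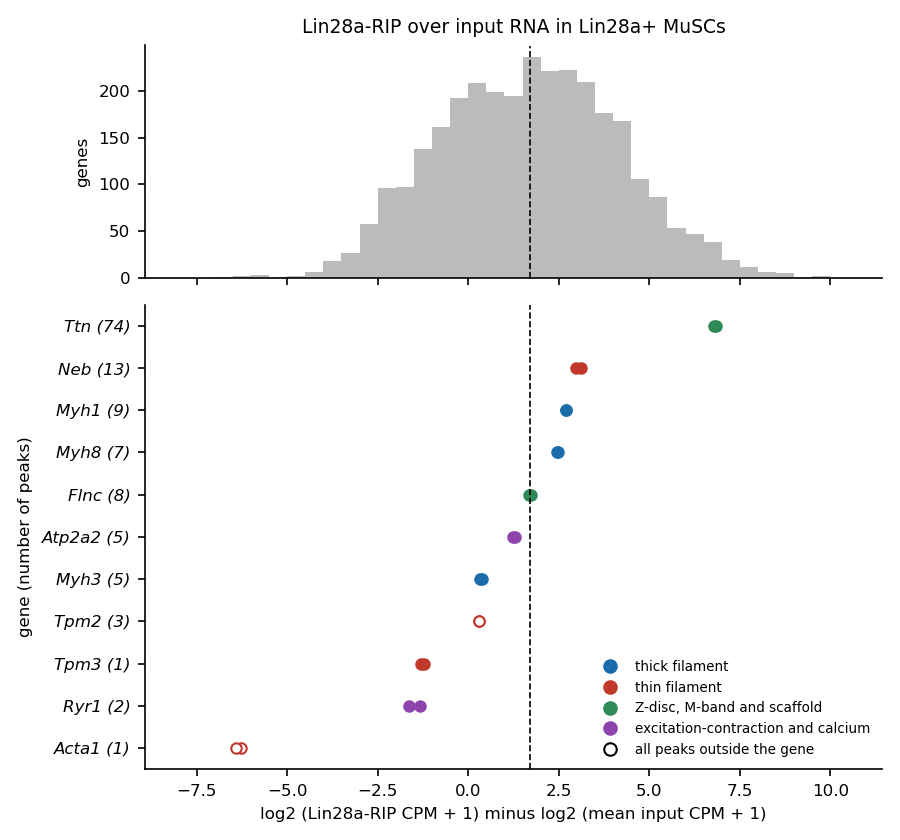
Lin28a-RIP over input RNA in Lin28a+ MuSCs, as the difference of log2 (CPM + 1), for all 3016 genes in both tables (histogram, top) and for the 11 sarcomere genes with a peak (bottom, 1 point per Lin28a-RIP replicate, number of peaks in brackets). The dashed line is the median of all genes at 1.71. Ttn lies far to the right, and the open points of Acta1 and Tpm2 rest on peaks outside the gene.

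In Igf2bp3-RIP, 9 sarcomere genes held 33 of the 19465 peaks, and Ttn again had the most with 17. Flnc had 4, Nebl 3, Csrp3, Tpm2 and Tpm3 2 each, and Acta1, Atp2a2 and Myl1 1 each. The peaks of 3 genes lay wholly outside them. The Acta1 peak had the same coordinates as in the Lin28a-RIP table, the 2 Tpm2 peaks lay in Tln1, and the 2 Csrp3 peaks lay 3276 and 5750 bases from Csrp3 within Zdhhc13, which encodes an acyltransferase. That left 28 peaks (84.8%, against 80.6% of all Igf2bp3-RIP peaks) in 6 genes. The transcript that the table names for the Csrp3 peaks is also named by 2 of the 3 m6A-RIP rows of Csrp3, which held 95.5% to 98.1% of its m6A-RIP counts. For Tpm2 and Acta1 such rows held 3.48% to 3.75% and 0.752% to 1.45%.

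No sarcomere gene and no sarcomere peak was called in Igf2bp3-RIP between the groups (edgeR), where calls were rare among all features, at 0.287% of 4527 genes (0.133% higher, 0.155% lower) and 0.123% of 19465 peaks (0.0616% in each direction). At an unadjusted p under 0.05, 2 of the 9 genes (Nebl and Myl1) and 5 of the 33 peaks passed, against 8.44% of all genes and 5.22% of all peaks. DESeq2 called 2 genes and 1 peak, all lower, against 1.44% of all genes and 0.781% of all peaks called lower. Nebl was at 22.5 and 31.4 CPM in control and at 6.68 and 11.9 CPM in Lin28a+ MuSCs (-1.53 ± 0.37, edgeR adjusted p = 0.28). Myl1 was at 204 and 307 CPM against 117 and 77.6 CPM (-1.398 ± 0.31, edgeR adjusted p = 0.22), and it was called lower when control replicate 1 or Lin28a+ replicate 1 was left out. Flnc was at 544 and 667 CPM against 291 and 479 CPM (-0.65 ± 0.30, edgeR adjusted p = 0.63). In these 3 genes the libraries of the groups did not overlap, which was so for 38.2% of all genes and 31.8% of all peaks, and in the other 6 they did. Ttn was at 1075 and 1416 CPM in control and at 866 and 1281 CPM in Lin28a+ MuSCs (-0.21 ± 0.32, edgeR adjusted p = 0.91), and its 17 peaks ranged from -0.33 to -0.04 on the log2 scale. With the replicate number as a block, Nebl, Myl1 and Flnc were called lower, as were 8 of the 33 peaks, against 4.73% of all genes and 6.28% of all peaks.

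Relative to input RNA, no sarcomere gene was called either (edgeR, background 0.969% of 3922 genes, 0.331% higher and 0.637% lower), while 2 of the 9 had an unadjusted p under 0.05, against 24.3% of all genes, and DESeq2 called 0, against 1.76%. The genes with such a p were Ttn, with 0.86 ± 0.32 (edgeR adjusted p = 0.17), and Flnc, with -1.13 ± 0.34 (edgeR adjusted p = 0.12). With the replicate number as a block, added after the data were seen, Ttn (0.85) and Acta1 (0.56) were called higher and Flnc (-1.17) lower. The Acta1 peak lies in Nup133. Over all 3922 genes this block called 338 higher and 387 lower. Ttn was called higher relative to input (1.12 ± 0.24) without Lin28a+ Igf2bp3-RIP replicate 1, where 265 genes in all were called higher, and Flnc was called lower (-1.50 ± 0.19) without replicate 2, where 89 were called lower. The RNA of Ttn was 1.30 lower on the log2 scale and its Igf2bp3-RIP value was -0.21, which turned to 0.06 without Lin28a+ replicate 1, and for Flnc the RNA was 0.25 higher and Igf2bp3-RIP 0.65 lower.

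The peaks of both proteins met mainly in Ttn and Flnc. Of the 33 Igf2bp3-RIP peaks of sarcomere genes, 26 overlapped a Lin28a-RIP peak by at least 1 base (78.8%, against 60.4% of all Igf2bp3-RIP peaks). Conversely, an Igf2bp3-RIP peak was met by 24 of the 128 Lin28a-RIP peaks (18.8%, against 52.4%). All 17 Igf2bp3-RIP peaks of Ttn overlapped 15 of its 74 Lin28a-RIP peaks, and these 15 held 38.8% of the Lin28a-RIP counts of Ttn at 57.2 CPM per kb, beside 57.1 CPM per kb over all 74. The tallest Ttn peak of Igf2bp3-RIP, 6127 bases long and with 26.3% of its counts, fell on the tallest of Lin28a-RIP. All 4 Igf2bp3-RIP peaks of Flnc were shared as well. Neb, Myh1, Myh3, Myh8 and Ryr1 had Lin28a-RIP peaks and no Igf2bp3-RIP peak, whereas Nebl and Myl1 had Igf2bp3-RIP peaks and no Lin28a-RIP peak. Actc1, Mybpc1, Myh2, Myh4 and Myh7 were in no RIP table, so the genes that rose and fell most in RNA, Actc1 and Myh4, were measured in RNA only.

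**Figure D5:**
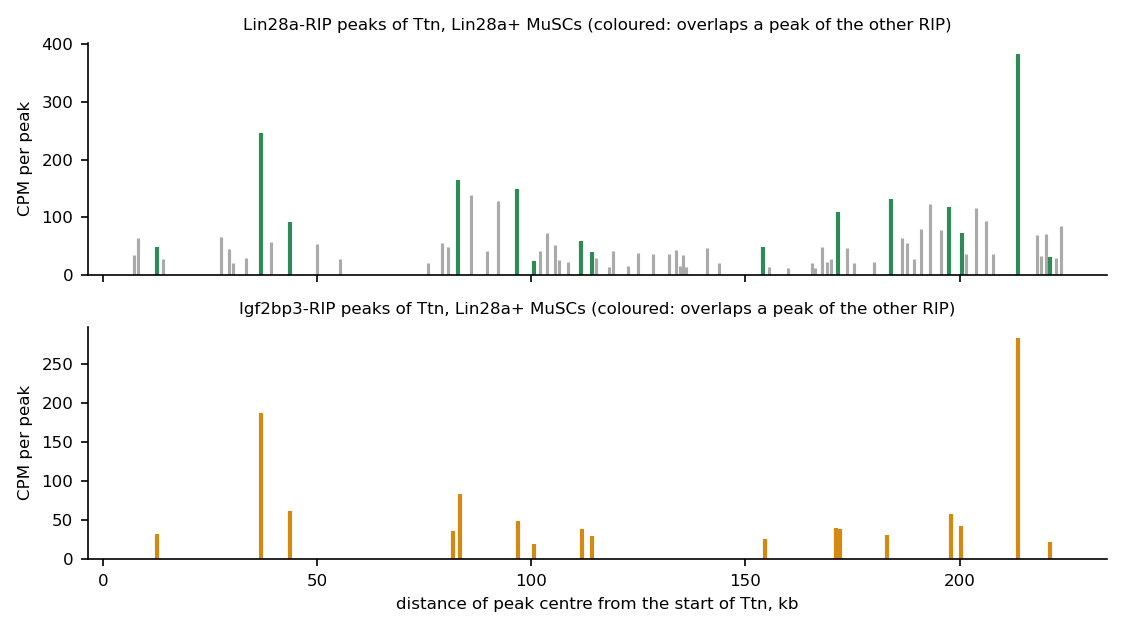
Peaks of Ttn in Lin28a-RIP (top, 74 peaks) and Igf2bp3-RIP (bottom, 17 peaks) of Lin28a+ MuSCs, by distance of the peak centre from the start of the gene in kb and mean CPM of the 2 libraries. Coloured peaks overlap a peak of the other RIP. The tallest peak lies between 210.6 and 216.8 kb in Lin28a-RIP and between 210.7 and 216.8 kb in Igf2bp3-RIP, and 15 of the 74 Lin28a-RIP peaks overlap an Igf2bp3-RIP peak.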

How the data were processed

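Genes were matched by symbol to the Ensembl identifiers of the input table and the Entrez identifiers of the RIP tables. The gene set and its lists were chosen with earlier results of these data known. The input table as deposited gives 1 estimated count per gene and library, and these were rounded. Counts deposited for m6A-RIP (by row) and for both proteins (by peak) are whole numbers and were summed by gene where stated. The submitters' notes name FastQC, HISAT2 2.0.4, MACS2 1.4.3, DESeq2 1.42.0, and the builds GRCh38 and mm10. The counting program is not given in the sources used here. Peaks were set against RefSeq spans on GRCm38.p6, the assembly behind mm10. Only part of the input values are whole (5.98% of genes in every library), so ratios and sums over genes depend on how these values were made, and were read for their change between groups, and the Lin28a-RIP over input values were given as a description. The 4 Lin28a+ columns of the input and m6A-RIP tables carry repeated or other names and were assigned to their group without a number.

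The main test was the quasi-likelihood test of edgeR 4.0.16 under R 4.3.3, with limma 3.58.1, TMM factors, filterByExpr, Benjamini-Hochberg adjusted p under 0.05, and an interaction term for RIP relative to input, with DESeq2 1.42.0 as an alternative. Scripts were tested on simulated data. Named genes were the 5 largest called changes of each role, all cardiac, embryonic and adult fast isoforms and paralogs, up to 4 RIP changes each way, and the 3 largest of the other list. Genes named among peaks outside their gene, the regulators and Acta2 were chosen after their values were seen. Standard errors with 2 libraries per group rest on a spread shared among genes. Lin28a itself was not analysed here.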

Additional observations from a re-analysis of the deposited data

How the results depend on the processing

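In RNA, 315 gene values kept their direction and side of the threshold under other settings and 12 lost the call, and with a library left out 178 did so, 8 lost the call and 2 changed sign. In m6A-RIP these counts were 187 and 4, with 1 gaining a call and 2 changing sign, and 143 and 9, with 2 gaining a call and 2 changing sign. Under DESeq2 the RNA calls of sarcomere genes were 9 higher and 24 lower, and of all genes 1479 higher and 1560 lower in place of 3181 and 3253. The adult fast median was -0.77 with no filter on low counts and -0.30 with at least 10 counts in every library. The calls of m6A-RIP relative to input that were lower numbered 1 under DESeq2, 8 with total counts only and 1 to 4 with each library left out (1 without the first Lin28a+ input library, 4 without the second Lin28a+ m6A-RIP library). With total counts only, all genes gave 2395 higher and 3766 lower in m6A-RIP (main 3060 and 3179), all rows 3842 and 7638 (main 5665 and 6005), and all genes 204 and 845 in m6A-RIP relative to input (main 248 and 318) and 200 and 34 in Igf2bp3-RIP relative to input (main 13 and 25). In Igf2bp3-RIP, DESeq2 called 1 peak and 2 genes lower, and leaving out each library gave 0 to 1 peak and 0 to 1 gene lower, and relative to input 0 to 1 higher and 0 to 1 lower. Over all features DESeq2 called 111 peaks higher and 152 lower, and 50 genes higher and 65 lower.

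Values of uncalled genes that changed sign were those of Tpm1 (-0.0711) and Tpm3 (-0.0125) in m6A-RIP with total counts only. With each library left out, Tcap ranged from -0.1219 to 0.2651 in RNA and from -0.1456 to 0.0407 in m6A-RIP, Tnnt3 from -0.6999 to 0.0591 in m6A-RIP, and Ttn from -0.4834 to 0.0595 and Csrp3 from -0.2389 to 0.3057 in Igf2bp3-RIP. The Lin28a-RIP over input median was 1.71 with peaks in the RefSeq span only (all genes 1.54, in place of 1.26 and 1.71), added after the data were seen.

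With the replicate block, Igf2bp3-RIP called 8 sarcomere peaks and 3 sarcomere genes lower and 0 higher, and over all features 766 peaks and 160 genes higher and 1222 peaks and 214 genes lower. In RNA the block, added after the data were seen, used the numbers that the Lin28a+ input columns carry under m6A-RIP names. It left 14 sarcomere genes higher and 29 lower and changed no call among them, with 3256 higher and 3285 lower over all genes. In Igf2bp3-RIP relative to input the block, also added later, called 2 sarcomere genes higher (Ttn, and Acta1, whose peak lies in Nup133) and 1 lower (Flnc), beside 338 higher and 387 lower over all 3922 genes. The labels do not say what the replicate number marks. Deviations of same-numbered libraries correlated at 0.703 over 19465 Igf2bp3-RIP peaks and at 0.117 over 11317 input genes, and the second replicate of Igf2bp3-RIP was the deeper in both groups. With only 2 pairs the fit without the block was kept. No paired analysis was possible for m6A-RIP, alone or relative to input, because both of its Lin28a+ columns carry the same replicate number. The cause of each of these changes was not tested. The biological coefficient of variation of Igf2bp3-RIP without the block was 25.4% per gene, and that of input RNA was 2.485%.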
